A study of Mus musculus with 15 samples.

Results

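Spleens of mice with acute promyelocytic leukaemia, in which cells blocked at the promyelocyte stage fill the organ, were profiled on Affymetrix Mouse Exon 1.0 ST arrays, 1 array per tumour. All 15 tumours carry the same labels: spleen, Bl/6 Taconic strain and the leukaemia; the labels used here name no allele, treatment or age and no healthy spleen. To compare tumours within this single group, a score was made from 5 genes that mark macrophages, Vcam1, Adgre1 (listed under its older symbol Emr1), C1qa, C1qb and C1qc. Each gene was centred on its mean over 15 tumours and the 5 values were averaged per tumour. The 5 tumours with the highest score (high-score tumours) were compared with the 5 with the lowest (low-score tumours), so 10 of 15 tumours entered the comparison, and the 5 between (middle tumours) were described only. The groups were thus chosen by measured values of the same arrays and not by a label, and the 5 score genes were described without a test.

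Red pulp macrophages are the resident macrophages of the spleen's red pulp. They take up aged red blood cells, break down their haem and return the iron to the blood, and their development depends on the transcription factor Spi-C, encoded by Spic. They carry the adhesion molecule Vcam1 and the surface receptor Adgre1, the protein read by a widely used macrophage antibody. C1qa, C1qb and C1qc encode the chains of C1q, the recognition part of the classical complement pathway, which tissue macrophages make.

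Each gene is given by the median log2 intensity of its probesets, with SDs as errors unless stated. A gene counted as detected with a mean over 15 tumours above 6.41, the 40th percentile among genes; this limit is a rank among genes and not a measured background. The median intensity per array lay between 120 and 125 in the high-score tumours and between 108 and 129 in the low-score tumours. Between arrays, r over genes was 0.928 to 0.978. For tumor_9509 and tumor_9514, both in the low-score group, r was 0.964 as a pair and 0.949 or less with every other array, so these arrays stood apart. Tumour numbers had 2 digits in 3 of 5 high-score and 1 of 5 low-score tumours, which is a format of the name and not a stated batch. Separate animals are not named as the source in the labels. The p-values therefore measure only the spread among arrays, some of which may be technical.

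The score ran from 0.71 to -0.73 without a break at either group limit. In falling order the high-score tumours were tumor_33 (0.71), tumor_29 (0.36), tumor_26 (0.34), tumor_9529 (0.28) and tumor_9508 (0.19). The low-score tumours were tumor_31 (-0.12), tumor_9500 (-0.17), tumor_9514 (-0.44), tumor_9492 (-0.65) and tumor_9509 (-0.73). Just outside the limits lay tumor_9495 at 0.18, only 0.003 under tumor_9508, and tumor_36 at -0.10, 0.026 above tumor_31. The groups are therefore ends of a range and not separate kinds of tumour.

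Vcam1 stood at 10.74, 10.73, 10.59, 10.17 and 9.54 in the high-score tumours, in falling order of score, and at 10.11, 9.32, 8.37, 8.46 and 8.03 in the low-score tumours. The group means were 10.35 ± 0.51 (SD, n = 5) and 8.86 ± 0.85 (SD, n = 5). All high-score tumours but tumor_9508 lay above every low-score tumour. Adgre1 stood at 9.08, 7.15, 7.46, 6.57 and 8.23 in the high-score tumours and at 6.86, 7.07, 6.02, 6.12 and 6.26 in the low-score tumours, with means of 7.70 ± 0.98 and 6.47 ± 0.47 (SD, n = 5 each). Tumor_9529 had less Adgre1 than 2 low-score tumours, and 3 low-score tumours lay under the detection limit. The C1q chains differed less: C1qa by 0.44, C1qb by 0.46 and C1qc by 0.36 between group means, against 1.49 for Vcam1 and 1.23 for Adgre1. C1qb averaged 7.36 ± 0.29 in high-score and 6.90 ± 0.21 in low-score tumours (SD, n = 5 each). The brightest probeset differed by only 0.08 for C1qa and 0.001 for C1qb, but by 0.62 for C1qc, 0.97 for Vcam1 and 1.68 for Adgre1. All 3 C1qa probesets were higher in the high-score tumours, with 4 of 5 for C1qb and 3 of 5 for C1qc. No score gene separated the groups by itself. Vcam1 made up 37.5% of the score's difference between groups, Adgre1 30.9%, C1qb 11.6%, C1qa 10.9% and C1qc 9.01%. These differences follow from how the groups were made and are not results.

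**Figure D1:**
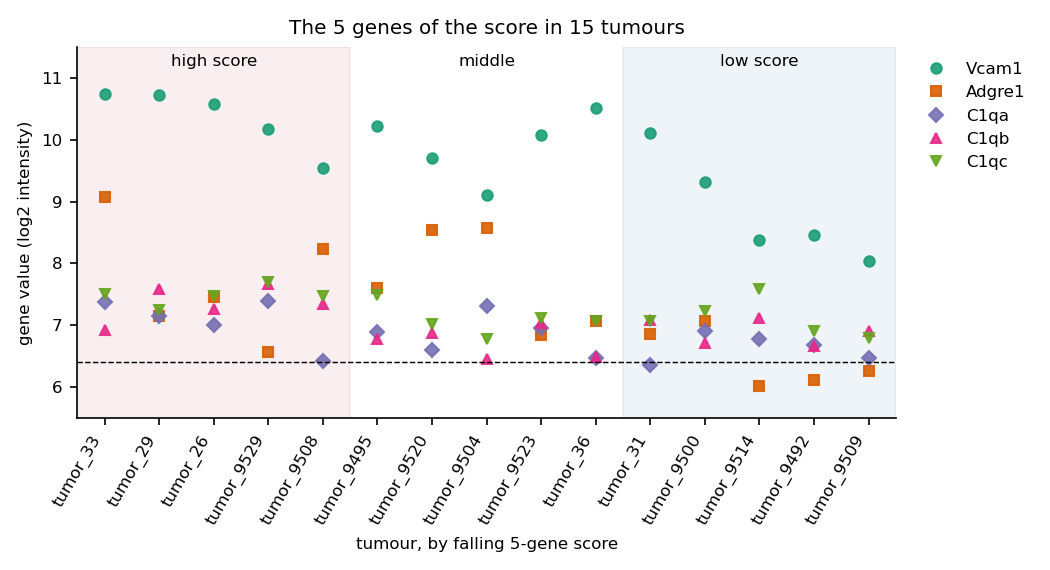
Values of the 5 score genes (log2 intensity, y axis) in each of 15 tumours, ordered by falling score along the x axis, with 1 marker per gene and tumour; shading marks the 5 high-score and 5 low-score tumours and the dashed line the detection limit of 6.41. Vcam1 and Adgre1 range over more than the C1q chains, and Adgre1 is lower in tumor_9529 (6.57) than in tumor_31 (6.86) although their scores are in the opposite order.

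The score genes varied together only loosely over the 15 tumours. Vcam1 and Adgre1 correlated at r = 0.45, C1qb and C1qc at 0.62, Adgre1 and C1qb at -0.16 and Adgre1 and C1qc at 0.05 (Pearson, n = 15; all arrays share their processing, and no test was made). Against the mean of the other 4 score genes, r was 0.61 for Vcam1, 0.44 for C1qa, 0.42 for C1qc, 0.32 for Adgre1 and 0.21 for C1qb. Scores from subsets of the genes ranked the tumours differently. The C1q chains alone placed tumor_9514, a low-score tumour, among the 5 highest, and Vcam1 with Adgre1 placed tumor_9529, a high-score tumour, among the 5 lowest.

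The name red-pulp-macrophage-rich was not borne out by other markers of these cells. Of 15 further genes listed for red pulp macrophage identity, 14 were measured and 10 of these lay below the detection limit on average. Spic averaged 5.35 ± 0.51 in high-score and 4.43 ± 0.38 in low-score tumours (SD, n = 5 each), below the limit in all 15 tumours, so no fold is given. Cd163, a haemoglobin scavenger receptor, stood at 6.03 against 6.05, and Cd5l, a secreted macrophage protein, at 5.50 against 5.44. Timd4, a receptor for dying cells, was also below the limit in all 15 tumours. So were Vsig4, a complement receptor, and Marco, a scavenger receptor listed for marginal zone macrophages, but neither is on the red pulp identity list. The groups are therefore named by their score alone.

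Across 9774 detected genes other than the score genes, 3 (0.0307%) passed an adjusted p of 0.05 (limma, two-sided, Benjamini-Hochberg). Fbp1 and Dab2 were higher in the high-score tumours (0.0205% of genes tested) and Il1f9 was lower (0.0102%). At an unadjusted p under 0.05, 693 genes were higher (7.09%) and 370 lower (3.79%). This split depended on the arrays and the scaling: it was 680 to 569 after quantile normalization, and 189 to 715 without tumor_9509 and tumor_9514. The groups did not overlap in 82 higher (0.839%) and 74 lower genes (0.757%), 1.6% in all. The median difference over all genes tested was 0.05.

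Fbp1, which encodes fructose bisphosphatase, an enzyme of gluconeogenesis, read 9.22, 7.91, 8.23, 8.22 and 8.68 in the high-score tumours, in falling order of score. The low-score tumours read 5.96, 6.54, 6.19, 6.24 and 5.35, and 4 of these 5 lay below the detection limit. The groups were 1.37 apart at their nearest tumours. The means were 8.45 ± 0.51 and 6.05 ± 0.44 (SD, n = 5 each), a difference of 2.40 (SE 0.27, limma adjusted p = 0.0051). The middle tumours spread over the whole range, with 10.15 in tumor_9504, 10.02 in tumor_9520, 8.63 in tumor_9495, 7.30 in tumor_36 and 5.82 in tumor_9523. All 11 probesets of Fbp1 were higher in the high-score tumours, 6 of them without overlap, but the brightest differed by only 0.03. Values below the detection limit were used as read, so the size of the difference is uncertain for Fbp1 and for Il1f9. In bulk tissue, fewer cells of a type and less RNA per cell cannot be told apart, for Fbp1 and for every gene that follows.

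Dab2, an endocytic adaptor found in macrophages among other cells, read 8.30, 7.79, 6.98, 8.53 and 9.34 in the high-score tumours. In the low-score tumours it read 5.19, 5.83, 6.02, 5.13 and 5.83. Every low-score tumour lay below the detection limit and every high-score tumour above it. The means were 8.19 ± 0.88 and 5.60 ± 0.41 (SD, n = 5 each), a difference of 2.58 (SE 0.37, limma adjusted p = 0.0401). With the low-score tumours set to the detection limit, Dab2 was at least 3.41-fold higher in the high-score group. All 22 probesets were higher, 17 without overlap. Of the middle tumours, 3 lay in the range of the high-score group, tumor_9523 at 6.49 lay between the groups, and tumor_9520 at 9.65 lay above both.

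Il1f9, also known as Il36g, encodes a cytokine of the interleukin 1 family. It read 6.44, 5.37, 6.47, 5.52 and 6.07 in the high-score tumours and 9.69, 8.82, 9.50, 7.86 and 9.05 in the low-score tumours. The groups were 1.40 apart at their nearest tumours, and 3 high-score tumours lay below the detection limit. The means were 5.97 ± 0.51 and 8.99 ± 0.72 (SD, n = 5 each), a difference of -3.01 (SE 0.34, limma adjusted p = 0.0051). All 5 probesets were lower in the high-score tumours without overlap. The middle tumours averaged 7.24, and 4 of them lay between the groups.

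**Figure D2:**
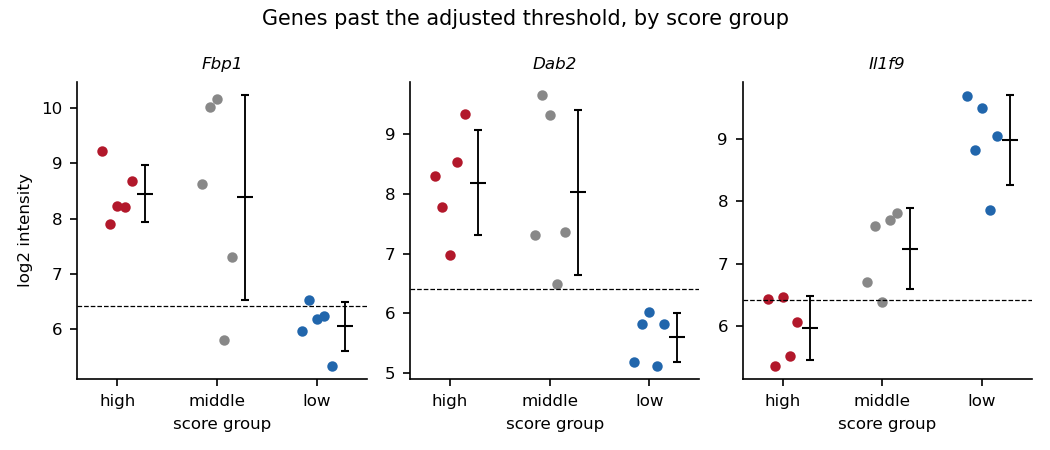
Values of Fbp1, Dab2 and Il1f9 (log2 intensity, y axis) in the 5 high-score (red), 5 middle (grey) and 5 low-score (blue) tumours, with 1 point per tumour; the horizontal mark and bar are the mean and SD and the dashed line the detection limit of 6.41. High-score and low-score tumours do not overlap in any of the panels, and the middle tumours of Fbp1 span both groups.

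The directions of these 3 genes were the same in all 30 alternatives, but the sizes and the calls were not. With a score of the C1q chains alone the differences were 0.98 for Fbp1, 0.89 for Dab2 and -1.75 for Il1f9. With a score of Vcam1 and Adgre1 they were 2.30, 1.74 and -1.63, and none of the 3 genes passed with either score. Fbp1 and Il1f9 passed whichever of the 10 tumours was left out, at adjusted p up to 0.0308. Dab2 passed without tumor_26 or tumor_9508. It did not pass without tumor_33, tumor_29, tumor_9529, tumor_31, tumor_9500, tumor_9514, tumor_9492 or tumor_9509, at adjusted p up to 0.211. Dab2 also did not pass without the filter on dim genes (0.0567), with 7 against 7 tumours (0.0900) or with all 15 tumours in 3 groups (0.110). In the fit with 3 groups Fbp1 did not pass (0.176), and with 7 against 7 Il1f9 did not (0.0611). Without tumor_9509 and tumor_9514, the arrays that stood apart, no gene passed. The differences were then 2.20 for Fbp1 (adjusted p = 0.0737), 2.80 for Dab2 (0.171) and -2.82 for Il1f9 (0.101). Among the 6 tumours with 4-digit numbers the differences were 2.37, 3.23 and -3.01, and among the 4 with 2-digit numbers 2.49, 2.50 and -3.60, with no gene past the threshold in either set. Exchanging tumor_31 for tumor_36, its neighbour across the group limit, also ended the 3 calls (adjusted p = 0.106 for Fbp1, 0.309 for Dab2 and 0.0541 for Il1f9).

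The 150 bases before the annotated start are shown for these 3 genes and, for comparison, for the score gene C1qb (RefSeq sequences, build GRCm38.p6; 5 of the 8 genes matched, with C1qc as the fifth). Capitals mark GAGGAA, a purine-rich core of sites bound by the ETS factors PU.1 and Spi-C, and TTGCNNAA, of the kind bound by C/EBP factors; both strands were searched and the motifs do not overlap here.
Fbp1, chr13:62888283-62888432, minus strand: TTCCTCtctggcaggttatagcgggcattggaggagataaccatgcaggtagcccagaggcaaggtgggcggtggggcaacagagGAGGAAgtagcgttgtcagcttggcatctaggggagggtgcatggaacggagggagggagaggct
Dab2, chr15:6299639-6299788, plus strand: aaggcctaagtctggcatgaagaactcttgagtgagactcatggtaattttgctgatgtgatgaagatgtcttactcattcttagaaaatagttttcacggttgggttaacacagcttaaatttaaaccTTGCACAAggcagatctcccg
Il1f9, chr2:24186326-24186475, plus strand: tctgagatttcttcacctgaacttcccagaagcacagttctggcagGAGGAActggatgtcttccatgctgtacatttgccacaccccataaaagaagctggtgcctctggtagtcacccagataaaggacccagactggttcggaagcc
C1qb, chr4:136886201-136886350, minus strand: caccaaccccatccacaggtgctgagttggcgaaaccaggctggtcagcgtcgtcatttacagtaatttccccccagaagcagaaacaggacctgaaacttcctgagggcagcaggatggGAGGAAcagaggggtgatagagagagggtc
GAGGAA stands once in C1qb and once in Il1f9 in this orientation, and in Fbp1 it was found in each orientation (the reverse match reads TTCCTC). TTGCNNAA was found in Dab2, and neither motif in C1qc or before the other Dab2 start at chr15:6386598-6386747. Of 32851 promoter windows of this length, 14.5% held GAGGAA and 5.46% TTGCNNAA, so single matches are common. A match describes the letters and not a bound site.

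Below these 3 genes in the order of p came Pdk1, a kinase that inhibits pyruvate dehydrogenase. It read 7.34, 7.62, 7.90, 7.90 and 7.93 in the high-score and 6.78, 7.01, 6.64, 6.74 and 6.60 in the low-score tumours, a difference of 0.99 (SE 0.15, limma adjusted p = 0.0611). The groups did not overlap, and Pdk1 passed with arrays centred on their median, after quantile normalization, with a trended and robust fit, and without tumor_33. Papss2, an enzyme that makes the sulphate donor for sulphated sugars, was next among genes with positive differences of over 1, with 8.29 to 8.69 in the high-score and 5.31 to 7.99 in the low-score tumours. Its difference was 1.87, and it passed without tumor_9500.

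Genes of red pulp macrophages and of iron handling did not pass the test. Of 28 gene lists with 271 distinct members tested, no member passed the adjusted threshold in limma, and the smallest adjusted p was 0.179; at an unadjusted p under 0.05, 13 members were higher and 22 lower, against 7.09% and 3.79% of all genes. Of the red pulp identity list, 10 measured members lay below the detection limit and were not tested. Among these, Spic, Axl and Cd5l averaged higher in the high-score tumours and Cd163 slightly lower, at levels near or below that limit. The 4 tested members of the list, among them Treml4, Cd300a and Siglece, all had negative differences, with a median of -0.40. That median lay between -0.59 and -0.30 when 1 tumour was left out, and was -0.17 with 4 tumours per group. With a score of the C1q chains alone it was 0.02, with 3 of the 4 members positive. Treml4, a receptor of red pulp macrophages and dendritic cells, averaged 6.53 ± 0.40 in high-score and 6.97 ± 0.42 in low-score tumours (SD, n = 5 each; limma adjusted p = 0.504). Axl, a receptor for dying cells, averaged 6.57 against 6.18 and was not detected over the 15 tumours, and Mertk, a related receptor, averaged 5.37 against 5.13, below the limit in all.

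Of the haem and iron list, 17 of 21 measured genes were tested, 9 with a positive and 8 with a negative difference and a median of 0.03, or -0.02 after quantile normalization. It was -0.02 without tumor_9514 and 0.12 without tumor_9529. Hmox1, the enzyme that opens the haem ring, read 8.21, 8.43, 7.91, 8.29 and 7.86 in the high-score tumours. The low-score tumours read 8.46, 7.91, 7.90, 7.64 and 7.16, so tumor_31 exceeded every high-score tumour. The difference was 0.33 (SE 0.22, limma adjusted p = 0.599). Slc40a1, the iron exporter ferroportin, averaged 7.47 ± 0.65 against 6.71 ± 0.70 (SD, n = 5 each), a difference of 0.76 (SE 0.36, limma adjusted p = 0.471). The highest low-score value, 7.85 in tumor_31, exceeded 3 high-score tumours. Trf, the iron carrier transferrin, averaged 9.80 ± 0.66 against 8.80 ± 0.74 (SD, n = 5 each), a difference of 1.00 (limma adjusted p = 0.398). Slc11a1, an iron transporter of phagosomes, differed in the opposite direction, at 6.32 against 6.90.

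General macrophage genes showed the same mixture. In the core tissue macrophage list 10 of 16 tested members had a positive difference (57.7% of all genes) and 1 was higher at an unadjusted p under 0.05 (7.09% of all genes). The median was 0.06, or 0.16 without tumor_31 and -0.08 without tumor_9509. The 1 higher gene was Selenop, a selenium carrier, at 9.45, 7.97, 9.01, 8.61 and 9.71 in the high-score and 9.40, 8.53, 7.31, 5.77 and 6.91 in the low-score tumours. Its groups overlapped, since tumor_31 was among the highest (difference 1.36, SE 0.58, limma adjusted p = 0.437). Csf1r, the receptor for the macrophage growth factor, averaged 6.79 ± 0.16 against 6.70 ± 0.52 (SD, n = 5 each), and Cd68, a lysosomal glycoprotein of macrophages, 10.60 ± 0.82 against 10.03 ± 0.63. Tlr4, the endotoxin receptor, ranged from 5.77 to 8.13 within the high-score group alone.

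Lysosome genes had a median difference of 0.13 over 29 tested members, 19 positive. Without tumor_9509 and tumor_9514 the median was -0.13, with 8 positive and 4 lower at an unadjusted p under 0.05. In that fit 40.1% of all genes were positive and 7.32% were lower at that level. The lysosome median was -0.01 without tumor_9509 alone and 0.29 without tumor_31. Gusb, a lysosomal glucuronidase, averaged 9.69 against 8.85 (limma adjusted p = 0.390). Among 13 genes of lipid handling the median was 0.07, and Apoe, the lipid carrier apolipoprotein E, averaged 8.79 ± 0.19 against 8.30 ± 0.35 (SD, n = 5 each; limma adjusted p = 0.387). Genes for uptake of dying cells had a median of 0.10 over 11 members. Itgb3, an integrin subunit in uptake and adhesion, stood at 7.08 against 6.37, and Anxa1, a lipid-binding protein, at 9.60 against 10.31. The marginal zone macrophage list had only 2 tested genes, Siglec1 and Cd209a, and Cd209a is also on the dendritic cell list. Siglec1, a sialic acid receptor, averaged 6.67 against 6.71. Siglec1 and the other genes of this paragraph did not pass the test.

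**Figure D3:**
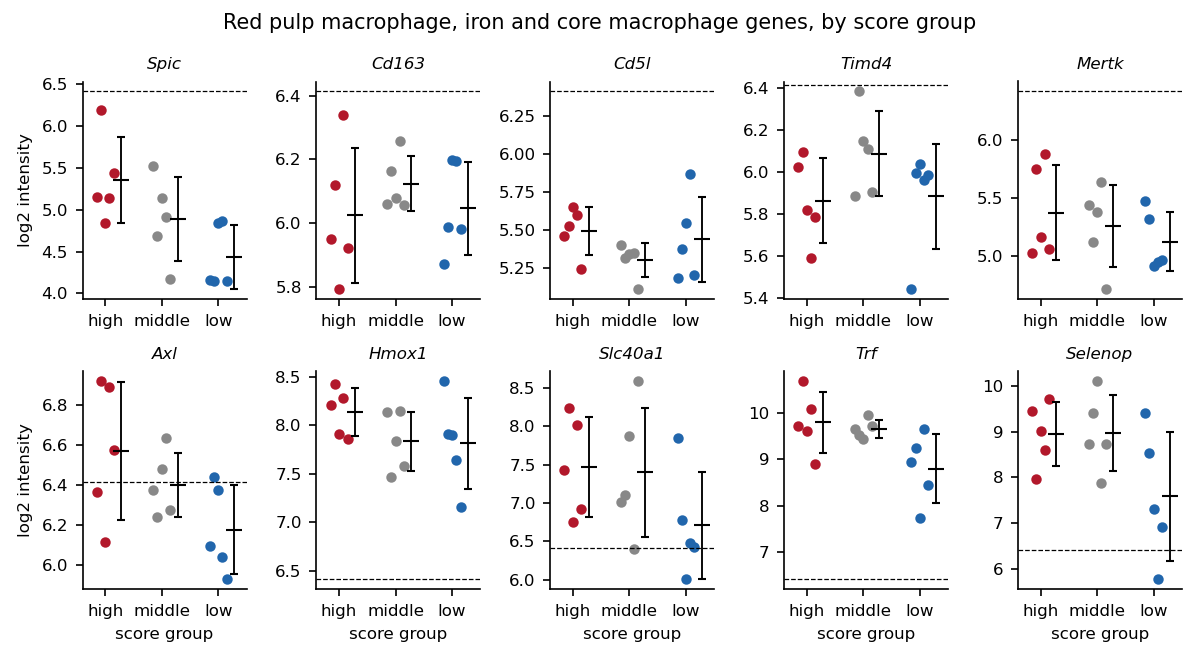
Values (log2 intensity, y axis) of 10 macrophage and iron genes in the 5 high-score (red), 5 middle (grey) and 5 low-score (blue) tumours, 1 point per tumour, with the mean and SD beside each group and the dashed line at the detection limit of 6.41; each panel has its own y range. Spic, Cd163, Cd5l, Timd4 and Mertk lie below the limit in every tumour, and the groups overlap for Hmox1, Slc40a1, Trf and Selenop.

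The lists with the most negative medians held genes of mature neutrophils and of secondary granules, the stores of antimicrobial proteins that neutrophils make after the promyelocyte stage. Of 11 tested mature neutrophil genes, 9 had a negative difference and 6 were lower at an unadjusted p under 0.05 (3.79% of all genes were), with a median of -0.89. Of 11 secondary granule genes, 10 were negative and 6 lower at that level, with a median of -0.63. Mmp8 is on both lists, and no member passed the adjusted threshold. Groups did not overlap in 2 and 4 of these genes, against 0.757% of all genes.

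Fpr1, a receptor for bacterial formyl peptides read by 1 probeset, stood at 9.07, 8.72, 8.22, 8.70 and 6.61 in the high-score and 11.12, 10.76, 11.55, 9.11 and 11.50 in the low-score tumours. Its difference was -2.54 (SE 0.52, limma adjusted p = 0.179), and tumor_9492 was the lowest of its group. Without tumor_9492, Fpr1 passed at an adjusted p of 0.0298. Mmp9, a gelatinase stored by neutrophils, read 7.69, 8.02, 7.22, 8.24 and 6.92 in the high-score tumours against 10.76, 9.87, 8.95, 8.69 and 9.02. The low-score group was 3.59-fold higher (difference -1.84, SE 0.38, limma adjusted p = 0.195), with 13 of 17 probesets lower without overlap. Cxcr2, a chemokine receptor of neutrophils, averaged 9.19 ± 0.95 against 10.59 ± 1.05 (SD, n = 5 each), and its groups overlapped.

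Lcn2, the siderophore-binding protein lipocalin, read 11.99, 11.33, 11.84, 11.20 and 11.06 in the high-score and 12.77, 12.63, 12.57, 12.22 and 12.52 in the low-score tumours. Every low-score tumour exceeded every high-score tumour (difference -1.06, SE 0.19, limma adjusted p = 0.179). With the digits of the tumour number as a covariate Lcn2 passed at an adjusted p of 0.0461. Chil1, a chitinase-like protein, was below the detection limit in every high-score tumour and averaged 7.55 in the low-score tumours, so that it was detected only through the group where it is high. Without Chil1, 9 of 10 secondary granule genes were negative, 5 were lower at an unadjusted p under 0.05 and 3 did not overlap, with a median of -0.62. Of all genes, 57.7% were positive, 3.79% were lower at that level and 0.757% were lower without overlap. Ltf, lactoferrin, averaged 9.97 ± 1.43 against 11.51 ± 0.53 (SD, n = 5 each), and Camp, the cathelicidin precursor, 12.57 ± 0.36 against 13.17 ± 0.10. The high spread of Ltf and of the collagenase Mmp8 came with tumor_9508, at 7.67 and 5.50 the lowest of all 15 tumours for both.

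The medians of both lists moved with the tumours and the score used. Without tumor_9508 the mature neutrophil median was -0.51. Both were -0.73 and -0.72 without tumor_9509 and tumor_9514, and -1.23 and -0.88 among 4-digit tumours. With 4 tumours per group, which leaves out tumor_9508 and tumor_31, they were -0.48 and -0.47. With a score of the C1q chains alone they were -0.14 and -0.23. No member was then lower at an unadjusted p under 0.05, where only 0.941% of all genes were.

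**Figure D4:**
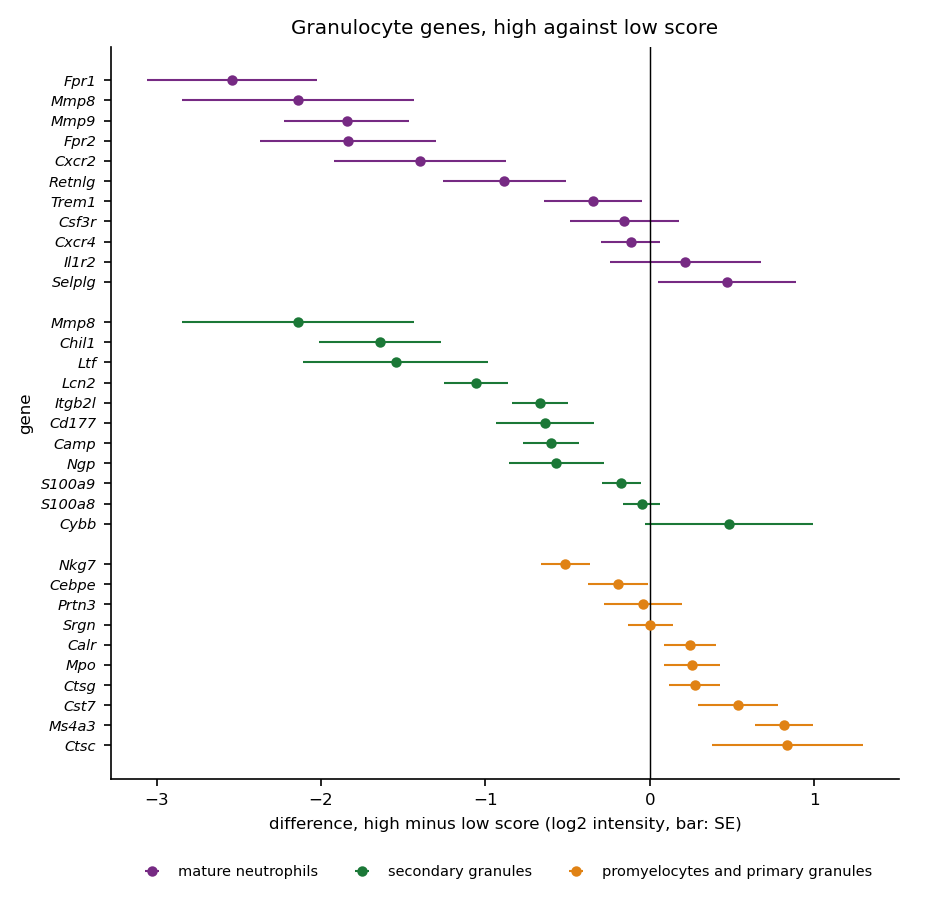
Difference of high-score minus low-score tumours (log2 intensity, x axis; bar, SE of the limma fit, 5 against 5 tumours) for each tested gene (y axis) of mature neutrophils (purple), secondary granules (green) and promyelocytes with primary granules (orange). Mature neutrophil and secondary granule genes lie mostly left of 0, down to -2.54 for Fpr1, and promyelocyte genes lie on both sides; none of these genes passed the adjusted threshold.

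Genes of promyelocytes and their primary granules, made earlier in the same lineage, had a median of 0.25 over 10 tested members, with 7 positive (57.7% of all genes). At an unadjusted p under 0.05, 2 were higher and 1 lower, against 7.09% and 3.79% of all genes. The lower gene was Nkg7, also on the NK cell list, at 11.47 against 11.98 (difference -0.51, SE 0.15, limma adjusted p = 0.337). Ms4a3, a membrane protein of granulocyte and monocyte precursors, read 11.93, 11.67, 11.80, 11.80 and 11.88 in the high-score and 10.46, 11.46, 11.01, 11.24 and 10.82 in the low-score tumours, without overlap (difference 0.82, SE 0.18, limma adjusted p = 0.209). Mpo, myeloperoxidase, averaged 13.04 ± 0.20 against 12.78 ± 0.31, and the granule protease Ctsg 12.32 ± 0.15 against 12.04 ± 0.28 (SD, n = 5 each). For Mpo and Ctsg, tumor_9514 and tumor_9509 lay below every high-score tumour, and for Ctsg tumor_31 did too. The list's median was 0.14 without tumor_9514 and 0.09 without both tumor_9509 and tumor_9514. Kit, the stem cell factor receptor, averaged 9.31 ± 0.48 against 8.49 ± 0.40 (SD, n = 5 each) and did not overlap between groups (limma adjusted p = 0.363). The other stem and progenitor genes lay on both sides, for a list median of -0.01.

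Cell cycle genes were positive in 17 of 18 tested members with a median of 0.24, where 57.7% of all genes were positive, and 3 were higher at an unadjusted p under 0.05 (7.09% of all genes). Without tumor_9509 and tumor_9514 the median was 0.01, with 9 positive and 9 negative and 3 lower at that level (7.32% of all genes in that fit). It was 0.13 without tumor_9514 and 0.41 without tumor_9492. Mcm7, a helicase subunit of DNA replication, averaged 9.04 ± 0.26 against 8.43 ± 0.41 (SD, n = 5 each), with its lowest values, 7.86 and 8.19, in the low-score group. Mki67, a marker of dividing cells, averaged 10.60 in high-score and 10.58 in low-score tumours.

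Genes of inflammatory signalling mostly had negative differences that did not pass the test. In the list of chemokines and cytokines 12 of 15 tested members were negative, with a median of -0.21. Tnf, tumour necrosis factor, averaged 8.13 ± 0.20 against 9.31 ± 0.67 (SD, n = 5 each), a difference of -1.18 (SE 0.27, limma adjusted p = 0.244), and passed when tumor_9492 was left out. Il1rn, the antagonist of the interleukin 1 receptor, stood at 7.31 against 8.19, and Il1b, an interleukin 1, at 6.73 against 7.97. Il1b varied by 1.54 (SD) within the low-score group. Of the complement list, Itgam, a subunit of complement receptor 3, read 8.72, 8.59, 8.46, 8.60 and 7.15 in the high-score and 10.04, 9.71, 9.33, 9.53 and 8.996 in the low-score tumours. It did not overlap between groups (difference -1.22, SE 0.30, limma adjusted p = 0.258). Cd93, a surface protein also on the complement list, lay the other way at 8.63 ± 1.34 against 7.52 ± 0.38 (SD, n = 5 each, limma adjusted p = 0.462). Spi1, which encodes the factor PU.1 needed for macrophages and neutrophils, averaged 8.91 ± 0.32 against 9.63 ± 0.43, and Id2, an inhibitor of transcription factors, 9.47 ± 0.47 against 10.41 ± 0.56 (limma adjusted p = 0.366 and 0.363).

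No marker of other spleen cells passed the test. The median was -0.16 for 7 B cell genes, -0.09 for 13 T cell genes, -0.12 for 4 NK cell genes, -0.15 for 5 erythroid genes and -0.01 for 6 megakaryocyte genes. It was 0.05 for 10 monocyte genes, 0.17 for 5 dendritic cell genes, 0.02 for 6 endothelial genes and 0.00 for 10 genes of fibroblasts and stroma. For 4 plasma cell genes it was -0.34, for 6 genes of basophils, mast cells and eosinophils -0.16 and for 3 interferon response genes 0.11. The median of the basophil, mast cell and eosinophil genes rested on single tumours: it was -0.57 without tumor_33, 0.14 without tumor_29 and -0.74 without tumor_9509 and tumor_9514. The B cell median was -0.31 without tumor_9492 and -0.03 without tumor_31. MHC class II genes, whose products present antigen on B cells, dendritic cells and macrophages, were negative in 8 of 9 with a median of -0.25. That median was -0.41 without tumor_9492, -0.13 without tumor_31 and -0.09 with 4 tumours per group. Among 2-digit tumours, 3 high-score against 1 low-score, it was -0.67, where the median of all genes tested was -0.09. H2-Aa averaged 8.19 ± 0.37 against 8.62 ± 0.80 (SD, n = 5 each). Pecam1, an adhesion molecule of endothelium and leukocytes, averaged 9.09 ± 0.69 against 8.26 ± 0.42 (limma adjusted p = 0.399), while the endothelial receptor Eng averaged 6.95 against 7.05. Jchain, the joining chain of secreted antibodies, stood at 7.52 against 8.43, and Mzb1, a chaperone of plasma cells, at 6.78 against 7.21 without overlap (limma adjusted p = 0.370 and 0.412). Chil3 and Lyz2, expressed by monocytes and granulocytes, stood at 11.16 against 11.74 and 11.40 against 11.69. Postn, a matrix protein, averaged 8.01 against 8.43 and Kdm6a, a histone demethylase, 6.96 against 6.83.

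**Figure D5:**
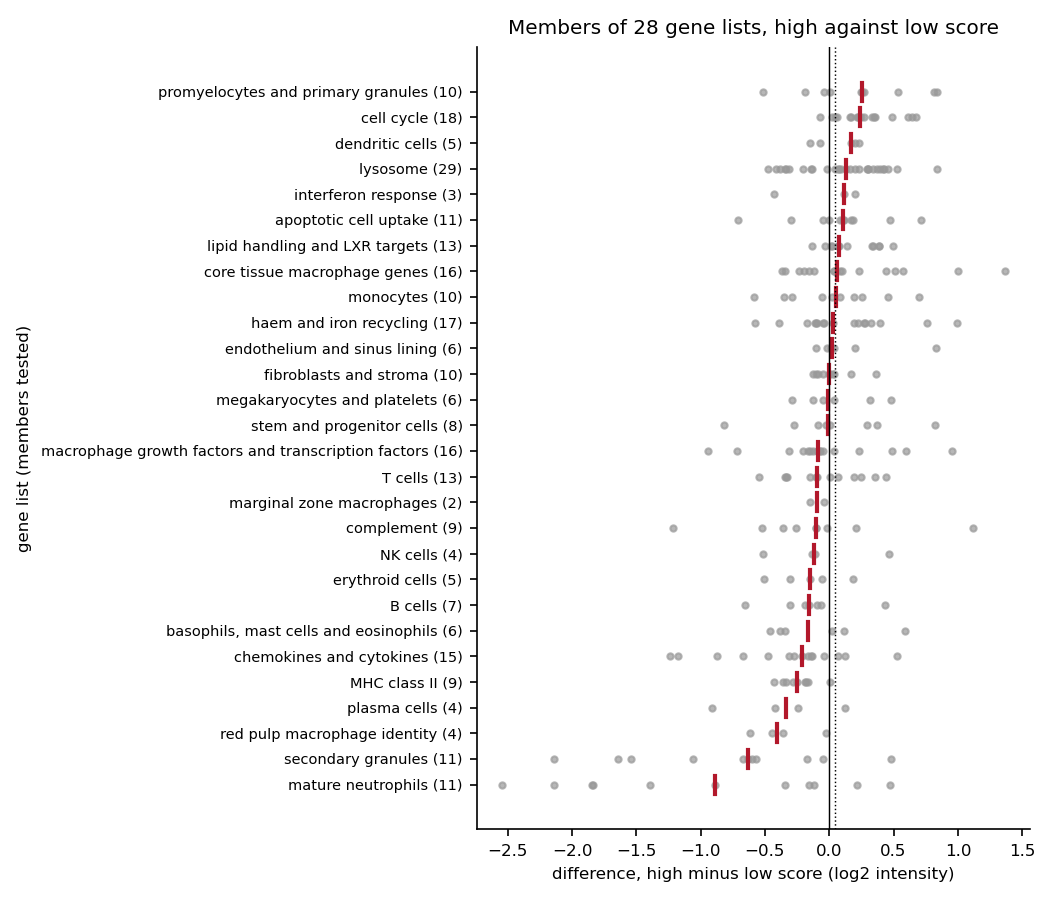
Difference of high-score minus low-score tumours (log2 intensity, x axis) for each tested member (grey points) of 28 gene lists (y axis, number tested in brackets), ordered by list median (red bars); the dotted line is the median of all genes tested (0.05) and the solid line 0. Core macrophage (0.06), iron (0.03) and lysosome (0.13) genes have medians near that of all genes; mature neutrophils (-0.89), secondary granules (-0.63) and the 4 tested red pulp identity genes (-0.40) have the most negative ones.

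The genes outside the score that followed it most closely over the 15 tumours were Npm3, a nucleolar chaperone (Pearson r = 0.86), Elk3, an ETS transcription factor (0.85), Aanat (0.85), Atl3 (0.85), Rpsa, a ribosomal protein (0.84), Pkdcc (0.84), Pcgf6 (0.83), Pde3b (0.82), Psat1 (0.81) and Tec (0.81). These values are descriptions over n = 15 arrays, with the groups drawn from the same score. None of these genes is on the macrophage lists. Fbp1 and Dab2 followed the score at 0.71 and 0.66, and Il1f9 at -0.73. Psat1, an enzyme of serine synthesis, read 7.98 to 8.37 in the high-score and 6.79 to 7.92 in the low-score tumours without overlap (difference 0.90, SE 0.20, limma adjusted p = 0.211).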

How the data were processed

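Gene expression was measured in 15 spleen tumours, 1 array each. The values deposited by the authors are linear intensity values of 229581 probesets; RMA and the build mm9 are named without version in the submitters' processing notes, and RNA was amplified from 20 ng, per the labels' protocols. Intensities were log2 transformed here. The 208397 probesets with a single gene symbol were used, and 3965 with several and 17219 with none were not. Of 16299 symbols, the GRCm38.p6 gene table held 14132 as current, 2099 were renamed through it and 68 were left as they were. A gene's value is the median of its probesets (median 11 per gene). Detected genes (9779, with the 5 score genes) had a mean above the 40th percentile, 6.41.

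High-score and low-score tumours were compared with limma 3.58.1 (lmFit and eBayes, R 4.3.3), two-sided, with Benjamini-Hochberg adjustment over 9774 genes and a threshold of 0.05; other steps used Python 3.11.15. The fit was tested on simulated data. The score, its genes and the gene lists were chosen with earlier results of these data known, so lists got counts and medians and no set test. Named were the score genes, all genes past the threshold, the 3 tested members of each list with the smallest adjusted p (a part of which is printed), some fixed macrophage and leukaemia genes, and the 10 genes most like the score. Pdk1, Papss2, Timd4, Cd68, Cxcr2, Ltf, Mmp8, Camp, Prg2, Gpr132 and Ern1 lie outside this rule and were named after their values were seen. Alternatives were the mean over probesets, filters on dim genes and probesets, centring, quantile normalization, the class of tumour number as a covariate, other fits, group sizes and scores, and each tumour left out. The fits within 2-digit and 4-digit numbers and the exchanges of tumours at the group limits, and the secondary granule list without Chil1, were added after the data were seen. Scanner files and scan dates were not used here. The number of arrays limits the precision.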

Additional observations from a re-analysis of the deposited data

Results flagged for a closer look

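Of 102 groups of 5 tumours tested over 34 named genes, 2 held a tumour far from the other 4 by Dixon's test, and chance gives about 1 in 20. Vsig4, a complement receptor of tissue macrophages, read 5.86 in tumor_9514 against 5.36 to 5.50 in the other low-score tumours, below the detection limit in all of them. Mpo read 12.43 in tumor_9504 against 12.96 to 13.10 in the other middle tumours.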

How the results depend on the processing

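The comparison as reported gave 2 genes higher, 1 lower and no list member. Of 30 alternatives, 26 were planned. Over 101 named genes, 2939 of 2982 values kept their side of the threshold, 40 lost it and 3 gained it. Only the 3 called genes could lose a call, so most kept values are uncalled genes that stayed uncalled. Dab2 lost its call in 19 of 29 alternatives, and Fbp1 and Il1f9 in 9 each. All 3 also lost it with the score as a continuous covariate, which these 29 leave out. None of the called genes changed sign, and 93 values changed sign among genes not called. Without a filter on dim genes, 1 gene was higher. Quantile normalization gave 2 lower genes, as did the class of tumour number as a covariate, which also gave 1 list member. With 15 tumours in 3 groups, 0 genes were higher. The score as a continuous covariate, 4 against 4 tumours, scores of the C1q chains, of Vcam1 and Adgre1 or of genes divided by their SD, the fits without tumor_9509 and tumor_9514 or within 4-digit or 2-digit numbers, and tumor_36 in place of tumor_31 gave 0 higher and 0 lower. At an unadjusted p under 0.05 limma gave 1372 and 294, 771 and 246, 102 and 92, 458 and 188, 876 and 318, 189 and 715, 457 and 210, 211 and 798, and 865 and 282 in these fits. With 7 against 7 tumours, 1 gene was higher and 0 lower. Leaving out 1 tumour gave 1 to 2 higher, 1 to 7 lower and 0 to 2 list members. The 7 came without tumor_9492, with Fpr1, Tnf, Zfp36, Cd52, Asprv1, AA467197 and Il1f9. Within 2-digit numbers the 1 low-score tumour is assumed to vary like the others. No paired analysis was possible because the labels give 1 group and no shared replicate numbers. The detection limit left 10 of 14 red pulp identity genes untested.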

Other observations

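The genes of the score stood beside different neighbours over the 15 tumours, given here as descriptions from arrays that share their processing. Adgre1 correlated with Fbp1 at r = 0.86, Cd68 at 0.84, Selenop at 0.80, Dab2 at 0.77 and Tlr4 at 0.69, and with Fpr1 at -0.68. Vcam1 correlated with Fbp1, Cd68, Selenop, Dab2 and Tlr4 at 0.41, 0.42, 0.54, 0.35 and 0.33. Its own closest genes were Gpr132, a receptor of the G protein coupled family (0.94), and Ern1, a sensor of protein folding stress (0.89), and it followed Trf at 0.70, Hmox1 at 0.63, Slc40a1 at 0.61 and Pecam1 at 0.61. Hmox1 and Adgre1 correlated at only 0.09. C1qb followed Kit at 0.67 and Pecam1 at 0.55, and Fbp1 at -0.02.

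Tlr4 and Adgre1 were both high in tumor_9520 (7.66 and 8.54), tumor_9504 (7.90 and 8.57) and tumor_9508 (7.89 and 8.23). Of these, only tumor_9508 is in the high-score group. The highest value of each gene lay in that group, with Adgre1 at 9.08 in tumor_33 and Tlr4 at up to 8.13. Fbp1 was highest in tumor_9504 (10.15) and tumor_9520 (10.02), both middle tumours by score. The eosinophil granule gene Prg2 was highest in tumor_33 (12.65), followed by tumor_31 (12.53) and tumor_9523 (12.48), with 8.34 in tumor_36. The haemoglobin gene Hbb-b1 ranged from 9.50 in tumor_9500 to 12.82 in tumor_9509, both low-score tumours, and the group means of Prg2 and Hbb-b1 did not pass the test.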
